A study of Mus musculus with 2 samples.

Results

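The mouse major histocompatibility region, H2, lies on chromosome 17 and is described here through its noncoding transcripts in spleen. Every deposited transcript lying between positions 33600000 and 38600000 of GRCm38 was taken, which gave 136 of the 32012 transcripts of the series. Of these, 60 were annotated transcripts of 37 gene names and 76 were assembled from the reads at 66 loci and named MSTRG. Spleen cells of mice with collagen-induced arthritis (CIA), a joint inflammation provoked by immunization with type II collagen, were compared with spleen cells of healthy mice that had received no treatment. The titles of both samples name day 40, but the treatment entry for CIA puts sacrifice 42 days from the first dose of collagen. The sources used here give no strain, sex, age, adjuvant or number of mice behind a library. There was 1 library per group, so every difference below is between 2 libraries and has no replicate check.

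The H2 region holds the genes of antigen presentation. Class II molecules (H2-A and H2-E) display peptides from the endosome to CD4+ T cells on B cells, dendritic cells and macrophages. H2-DM exchanges their peptides, and H2-O restrains H2-DM. Class I heavy chains (H2-K, H2-D and the H2-Q and H2-T genes) display peptides from the cytosol to CD8+ T cells, after cutting by the immunoproteasome and transport by Tap1 and Tap2. The class III stretch between them codes for complement components, tumour necrosis factor and its relatives, and many genes without an immune role. Class II alleles are the best known inherited modifiers of collagen-induced arthritis. Borders were set at Notch4 (chr17:34564268-34588503) and H2-D1 (chr17:35262730-35267499), so that the class II stretch, which also holds H2-K1 and the extended class II genes, had 60 transcripts, class III 34 and class I 42.

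Sequences are shown for the starts of the genes beside which the transcripts of most weight begin. The windows of the 250 bases before the gene start come from RefSeq on GRCm38.p6 and are written 5′ to 3′ on the gene's strand. H2-DMb1 (chr17:34152941-34153190, plus strand) is shown because MSTRG.16515.1 and MSTRG.16515.2 start at the far edge of its window on the other strand, 130 bases before the start that GENCODE gives the gene, and H2-DMb2 (chr17:34144999-34145248, plus) because it is its tandem copy. H2-Eb1 (chr17:34305617-34305866, plus) is shown because the antisense lncRNA Gm20513 starts inside it. BC051537 (chr17:34095310-34095559, minus) is an annotated transcript antisense to H2-Oa, and H2-K1 (chr17:34000348-34000597, minus) holds the member of highest level. Capitals mark CCAAT, the letters of the Y box of class II promoters, or ATTGG, the same letters on the other strand, and the run AACTGATGATGCT.
H2-DMb1: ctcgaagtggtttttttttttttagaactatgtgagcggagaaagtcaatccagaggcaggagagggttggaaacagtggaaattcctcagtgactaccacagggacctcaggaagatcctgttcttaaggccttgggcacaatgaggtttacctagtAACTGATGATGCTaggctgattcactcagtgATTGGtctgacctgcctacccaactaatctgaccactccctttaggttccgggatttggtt
H2-DMb2: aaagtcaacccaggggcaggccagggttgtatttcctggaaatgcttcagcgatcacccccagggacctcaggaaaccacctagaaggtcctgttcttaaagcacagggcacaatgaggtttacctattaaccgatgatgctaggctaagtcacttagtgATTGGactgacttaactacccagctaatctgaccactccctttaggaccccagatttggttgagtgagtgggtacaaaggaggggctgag
H2-Eb1: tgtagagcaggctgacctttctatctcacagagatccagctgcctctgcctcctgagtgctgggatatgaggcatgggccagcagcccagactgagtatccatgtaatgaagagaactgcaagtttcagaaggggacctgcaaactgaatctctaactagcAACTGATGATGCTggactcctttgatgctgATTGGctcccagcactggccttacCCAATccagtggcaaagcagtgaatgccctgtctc
BC051537: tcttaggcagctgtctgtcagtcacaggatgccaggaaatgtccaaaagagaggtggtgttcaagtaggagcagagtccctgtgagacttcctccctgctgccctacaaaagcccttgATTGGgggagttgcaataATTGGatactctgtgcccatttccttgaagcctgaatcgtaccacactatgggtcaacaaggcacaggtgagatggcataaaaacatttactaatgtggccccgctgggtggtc
H2-K1: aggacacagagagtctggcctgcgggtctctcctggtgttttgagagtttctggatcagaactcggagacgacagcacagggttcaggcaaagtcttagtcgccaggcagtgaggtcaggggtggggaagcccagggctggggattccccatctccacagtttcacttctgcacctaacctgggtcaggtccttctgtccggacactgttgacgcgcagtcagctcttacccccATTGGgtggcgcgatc

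All 5 windows held CCAAT on 1 strand or the other, letters found in 33.8% of the 32851 RefSeq windows of this length when both strands were searched. The ATTGG lay 61 bases before the start of H2-DMb1, 59 before H2-Eb1 and 90 before H2-DMb2. H2-K1 had it 16 bases and BC051537 132 and 114 bases before the start. These distances and those of the run below are from RefSeq starts. GENCODE starts H2-DMb1 inside its window, before the run and the ATTGG, and H2-DMb2 before its whole window. The longest run that the H2-DMb1 and H2-Eb1 windows share, AACTGATGATGCT, stood 92 bases before H2-DMb1 and 89 before H2-Eb1, and on either strand 2 of the 32851 windows (0.00609%) held it. These 2 are the H2-DMb1 and H2-Eb1 windows themselves, from which the run was taken. The run was looked for after the windows had been seen. TGACG, the core of the X2 box, was found in the H2-K1 window alone of these 5 and in 17.8% of all windows. TTCNNNGAA, the core of the interferon gamma activated site, was found at H2-DMb2 and BC051537 and in 7.02% of all windows. The strict kappaB site of NF-kappaB was in none of the 5 and in 0.14% of all windows, while the looser kappaB consensus was found at H2-DMb2, H2-Eb1 and H2-K1 and in 45.8%. Such matches describe the letters of these windows and do not show that a factor binds there.

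Levels are FPKM as deposited, that is, fragments scaled to the length of the transcript and the size of the library. A ratio is log2((CIA FPKM + 0.1)/(healthy FPKM + 0.1)), which understates differences of low transcripts. A transcript was kept if 1 library or both reached 0.5 FPKM, and those that differed at least 2-fold are called higher or lower in CIA. Where only 1 library reached 0.5 FPKM, the filter set the direction of the difference. Of the 60 annotated transcripts, 25 were listed at 0 in both libraries, 11 lay under the filter and 24 passed it. All 76 assembled transcripts passed, giving 100 in all, and 46 of the 76 had 1 exon and 35 no strand. Each of the 76 had at least 1 FPKM in 1 library or both. FPKM keeps no read counts. The commonest product of FPKM and length implied roughly 19.9 M fragments in the CIA and 21.6 M in the healthy library, but only 7.87% and 12% of low values were whole multiples of it within 0.01, so the depth is approximate.

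Of the 100 transcripts past the filter, 25 were higher and 13 lower in CIA. Among all 19841 transcripts past the filter in the series, 17% were higher and 10.3% lower. The median ratio of the members was 0.29, against 0.26 over all transcripts. With ratios centred on 0.30, the median of the annotated table, the members divided into 15 higher and 19 lower, and all transcripts into 11.2% and 14.4%. By table, 4 of 24 annotated members were higher and 2 lower with a median of −0.003, where 15.7% and 6.13% of all annotated transcripts were. Of the 76 assembled members 21 were higher and 11 lower with a median of 0.39, beside 17.2% and 11.1% of all assembled transcripts, and centring turned this split into 12 and 16.

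The 3 stretches differed in their counts. Over all transcripts 17% were higher and 10.3% lower, or 11.2% and 14.4% after centring. In the class II stretch 16 of 51 transcripts were higher and 5 lower, with a median of 0.53. Centring gave 7 and 7 (13.7% each), near the shares over all transcripts. In class III 1 of 21 was higher and 3 lower, with a median of 0.07 that became −0.23 on centring. In class I 8 of 28 were higher and 5 lower, with a median of −0.08, and centring gave 7 and 8. The class II stretch was not uniform. The 23 transcripts before H2-Oa, among the extended class II genes and H2-K1, had 4 higher, 3 lower and a median of −0.14. The 28 transcripts of class II proper, from H2-Oa to Notch4, had 12 higher, 2 lower and a median of 0.77, and 24 of the 28 lay above 0, where 64.1% of all transcripts did. After centring 4 were higher and 3 lower, and 24 of 28 still lay above the annotated median.

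**Figure D1:**
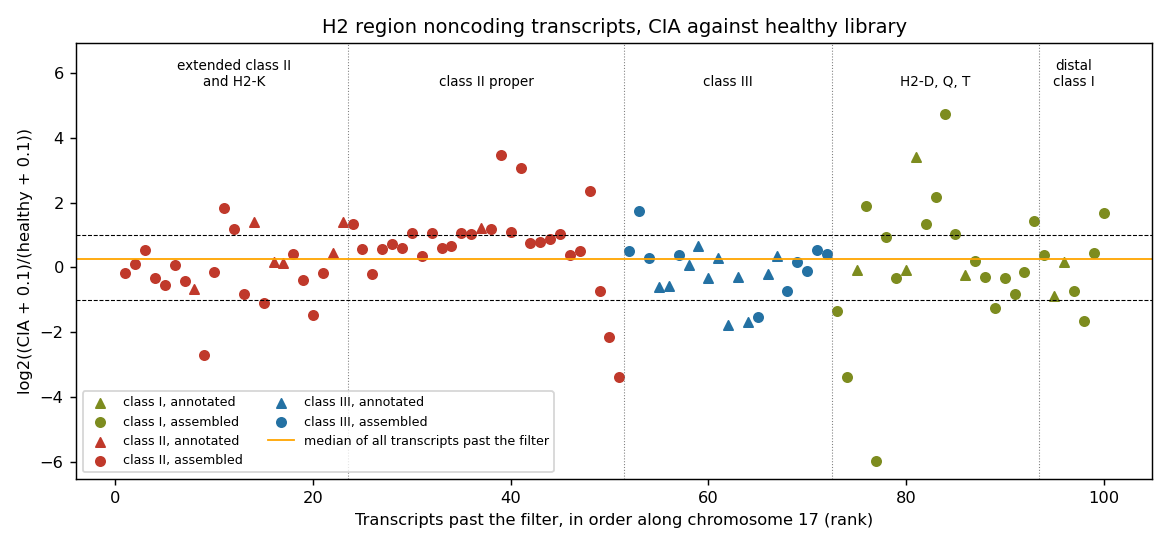
Each point is 1 of the 100 transcripts past the filter, in order along chromosome 17 (x axis, rank), with its ratio between the CIA and the healthy library on the y axis (log2). Dashed lines mark 2-fold, dotted lines the borders of the stretches and the orange line the median of all 19841 transcripts. In class II proper 24 of 28 points lie above 0, and the 2 points past the lower dashed line there lie in BC051142 and the pseudogene Btnl7-ps at its end.

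**Figure D2:**
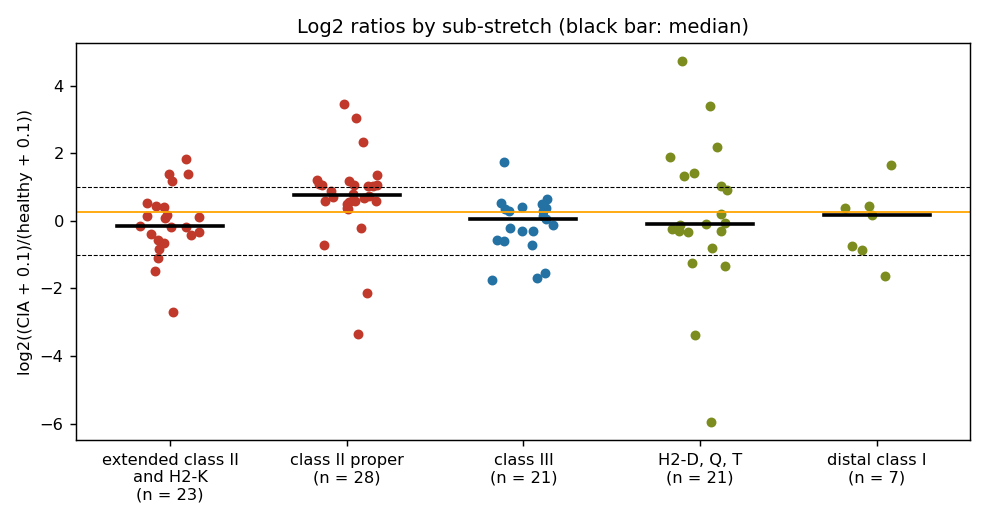
Ratios (y axis, log2) of the transcripts past the filter are shown by stretch, 1 point per transcript, with the horizontal position inside a stretch random. Black bars are medians, from −0.14 in extended class II and H2-K to 0.77 in class II proper, and the orange line is the median of all transcripts, 0.26.

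In bulk RNA, a change in the number of cells of a type and a change of RNA per cell cannot be told apart. Noncoding transcripts inside marker genes of spleen cell types also differed between the libraries. Of 26 inside 4 of 7 T cell marker genes (Lef1, Bcl11b, Tcf7 and Cd3e), 22 were higher and none lower in CIA, and their summed level was 85.9 FPKM in CIA and 31.7 in healthy. Over all transcripts 17% were higher and 10.3% lower. Most of the 26 lay in Lef1 and Bcl11b, so they are not 26 separate markers. Of 19 past the filter inside the B cell genes Pax5 and Ebf1, 6 were higher and 2 lower, with sums of 217.3 and 136.1 FPKM, while Ms4a1, Cd79a, Cd79b and Cr2 had no noncoding transcript past the filter. The dendritic and myeloid markers gave 0 higher and 2 lower of 10, with sums of 23.4 and 26.8 FPKM. The 2 lower ones, inside Lyz2 and Mpo, were listed at 0 in CIA. The others all lay inside Zbtb46, and all of these but MSTRG.23352.1 had the larger value in CIA. Of 7 inside Pecam1, an endothelial marker, 4 were higher and none lower (sums 64.3 and 32.8 FPKM). Centring left 18 T cell, 2 B cell and 1 Pecam1 transcripts higher. The labelled tissue could be checked only through such transcripts, since mRNA was not analysed here. The part of cell makeup in the differences of H2 transcripts was not tested.

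Among the genes of class II presentation, 14 noncoding transcripts overlapped a host gene and passed the filter. Of these 5 were higher and none lower in CIA, 13 of 14 lay above 0 and the median was 0.63. Over all transcripts 17% were higher, 10.3% lower and 64.1% above 0. After centring 1 was higher, none lower, and 13 of 14 lay above the annotated median. The 1 still higher was BC051537, which reached the filter only in CIA. Most of the 14 came from the H2-DMb pair, which codes for the beta chains of H2-DM. There, 10 minus-strand transcripts of 4 loci ran antisense to H2-DMb2 and H2-DMb1. Their levels were 2.74 to 13.5 FPKM in CIA and 1.79 to 10.5 FPKM in healthy, and their sums were 67.2 and 44.3 FPKM, a log2 ratio of 0.60. Of the 10, 9 were above 0, 3 were at least 2-fold higher (0 after centring), and the ratios went from −0.20 to 1.07. Over the whole series, 15.4% of the 376 assembled transcripts antisense to an exon of a gene were higher and 5.32% lower.

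The most abundant H2-DMb transcript, MSTRG.16515.4 (chr17:34145467-34154251), had 13.5 FPKM in CIA and 10.5 in healthy, a ratio of 0.36. MSTRG.16515.6 had 9.27 and 6.15 FPKM. MSTRG.16515.5 differed more, with 5.73 against 2.67 FPKM and a ratio of 1.07. These 3 isoforms share their left end, so their levels are estimates from shared reads, and the whole locus had 47.2 and 33.7 FPKM. MSTRG.16515.1, whose start lies in the H2-DMb1 window printed above, went the other way with 4.98 and 5.75 FPKM. MSTRG.16515.2, which starts at the same base, had 5.71 and 3.82 FPKM. MSTRG.16518.1, which lies over H2-DMb1 and beyond its 3′ end, had 6.60 and 3.10 FPKM. Of the 10 transcripts, 7 had 1 end in H2-DMb2 and the other in H2-DMb1. In 8 of the 10, MSTRG.16515.1 and MSTRG.16515.2 among them, the gap between the 2 exons was near 8 kb. The RefSeq windows of the 2 gene copies begin at 34144999 and 34152941, a like distance apart. Whether the 2 exons were joined across the copies was not tested. The 2 genes' transcripts are 95.4% identical over 848 aligned bases. Reads of such copies, and of the 2 strands, could not be told apart from the files, so these levels are uncertain.

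**Figure D3:**
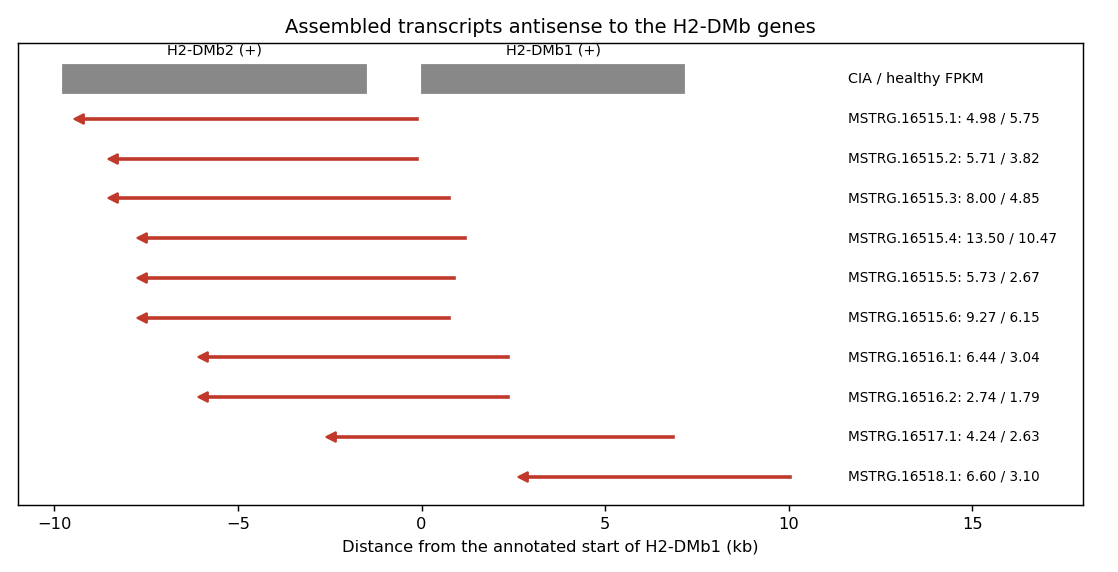
Spans of the 10 antisense transcripts (red, arrowhead at the 3′ end) are drawn against the genes H2-DMb2 and H2-DMb1 (grey, plus strand), with the distance from the annotated start of H2-DMb1 in kb on the x axis. The numbers at the right give FPKM in CIA and healthy, and the CIA value is the larger for all but MSTRG.16515.1.

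H2-DMa, the alpha chain partner, held the intronic MSTRG.16522.1 with 3.81 FPKM in CIA and 2.52 in healthy. For the H2-O genes both noncoding transcripts past the filter were higher in CIA, while an annotated transcript of H2-Ob was listed at 0 in both libraries. MSTRG.16532.1, in an intron of H2-Ob and on its strand, had 10.2 FPKM in CIA and 4.47 in healthy, a ratio of 1.17 that became 0.88 on centring, within 2-fold. The annotated BC051537, antisense to H2-Oa, had 0.874 and 0.272 FPKM, a ratio of 1.39, on about 29.0 and 9.8 fragment equivalents (FPKM times length over the commonest step). BC051537 reached the filter only in CIA, so the filter set its direction. Its left end lies before H2-Oa, so it is counted with the extended class II transcripts. MSTRG.16548.1, in an intron of H2-Eb2, had 4.21 and 2.93 FPKM.

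The intergenic transcripts of class II proper all had larger values in CIA. All 5 were at least 2-fold higher in CIA, with a median ratio of 1.35, and 3 of 5 were after centring. Those 3 were MSTRG.16535.1, MSTRG.16537.1 and MSTRG.16504.1. MSTRG.16535.1 and MSTRG.16537.1 reached the 0.5 FPKM filter only in CIA, so the filter set their direction. MSTRG.16504.1 and MSTRG.16513.1 reached 1 FPKM, a level that every assembled member had in 1 library or both, only in CIA. Over the series 24.8% of assembled intergenic transcripts were higher and 14.9% lower. Of the 5, 3 lay around H2-Aa, which codes for the alpha chain of H2-A. MSTRG.16535.1, 3.6 kb beyond its 3′ end, had 2.12 FPKM in CIA and 0.102 in healthy. MSTRG.16536.1, 2.2 kb beyond that end, had 5.34 and 2.43 FPKM. MSTRG.16537.1, 410 bases before its start, had 2.14 and 0.168 FPKM on about 13.7 and 1.2 fragment equivalents. All 3 have a single exon and no strand, so whether they belong to H2-Aa mRNA could not be seen. The other two were MSTRG.16504.1 beyond H2-Oa, with 1.84 and 0.661 FPKM, and MSTRG.16513.1 beyond H2-DMb1, with 2.08 and 0.958 FPKM.

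Gm20513 is an annotated lncRNA that starts 147 bases before H2-Eb1, on the opposite strand. Its spliced transcript lay under the filter, with 0.474 FPKM in CIA and 0.4998 in healthy. In its introns, 5 unstranded single-exon transcripts had ratios from 0.37 to 1.02, all above the annotated median. The largest by fragments, MSTRG.16544.1, had 2.20 and 1.03 FPKM, and MSTRG.16543.1 had 3.23 and 1.71 FPKM. The spliced transcript rests on about 5.1 and 5.8 fragment equivalents, too few to set its ratio against theirs.

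The end of class II proper, from Btnl2 to Btnl7-ps, went differently, though mostly on few fragments. Btnl2 codes for a butyrophilin-like relative of the costimulatory B7 molecules that restrains T cells, Btnl7-ps is a pseudogene of the same family, and BC051142 lies between them. MSTRG.16554.1, in an intron of the pseudogene Btnl7-ps, had 0.383 FPKM in CIA and 4.85 in healthy, a ratio of −3.36. In BC051142, MSTRG.16559.1 had 0.355 and 1.91 FPKM and MSTRG.16558.1 had 1.04 and 1.77 FPKM. MSTRG.16551.1, in Btnl2 itself, went the other way with 2.19 and 0.349 FPKM. The 4 transcripts of this interval had a median of −1.43, and without them 11 of the 24 in class II proper were higher (3 after centring), none lower, and 23 lay above 0 with a median of 0.83. This division was made after the values were seen. MSTRG.16551.1 rested on about 9.6 fragment equivalents in CIA and 1.7 in healthy. MSTRG.16558.1 had 4.3 and 8, and MSTRG.16559.1 had 2.8 and 16.3. With at least 20 fragment equivalents in 1 library or both, 1 of 21 transcripts in class II proper was lower, MSTRG.16554.1.

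Among peptide loading and immunoproteasome genes, which supply class I molecules, 3 transcripts passed the filter. Gm20496, antisense to Psmb8 and Tap2, had 0.571 FPKM in CIA and 0.188 in healthy, a ratio of 1.22 on only 5.9 and 2.1 fragment equivalents. It reached the filter only in CIA. MSTRG.16481.1, with ends in Platr17 and Tapbp, had 1.73 and 3.83 FPKM. An isoform of Gm19412, inside Tapbp, the chaperone that holds class I molecules at the transporter, had 0.558 and 0.499 FPKM. It rested on 6.3 and 6.1 fragment equivalents. The other Gm19412 isoform lay under the filter with 0.140 and 0.332 FPKM, and the gene summed to 0.698 and 0.831 FPKM. Of the 3 transcripts past the filter 1 was thus higher, 1 lower and 1 within 2-fold.

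Of the 6 noncoding transcripts past the filter that overlapped the listed class I heavy chain genes, none lay above 0. They include the 2 of highest level in the region. Over all transcripts 64.1% lay above 0. The list took genes that are named as H2-K, D, L, Q, T or M and typed protein-coding by GENCODE, with H2-K2 and H2-L. It thus leaves out the locus MSTRG.16719, described below, which runs over H2-T-ps and coding genes of other names, such as Gm7030 and Gm8909. There MSTRG.16719.3 was higher in CIA, with 10.9 and 3.99 FPKM, while MSTRG.16719.1 and MSTRG.16719.2 lay below 0. Of the 6, 3 were at least 2-fold lower in CIA, where 10.3% of all transcripts were, and 2 of these 3 are isoforms of 1 locus. The median was −0.85. MSTRG.16502.7 (chr17:33996106-33998356), an isoform of H2-K1 on its own strand that shares a splice junction with it, had 62.3 FPKM in CIA and 173 in healthy, a ratio of −1.47. MSTRG.16641.1 (chr17:35265744-35442574), deposited under Gm18734, lies on the strand opposite to H2-D1 and H2-Q7, in which its ends fall. It had 51.1 and 129 FPKM, a ratio of −1.33. Its sister isoform MSTRG.16641.2 had 1.41 and 15.7 FPKM, so that the locus summed to 52.5 and 145 FPKM. MSTRG.16499.1, with ends in H2-K2 and H2-K1, had 16.9 and 22.0 FPKM. MSTRG.16712.1, antisense to H2-T24, had 9.61 and 11.8 FPKM, and Gm11131, antisense to H2-Q4, had 2.78 and 2.97 FPKM.

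These class I transcripts lie across close copies. H2-D1 and H2-Q7 transcripts are 87% identical over 624 aligned bases, H2-D1 and H2-K1 91.2% over 1049, and H2-K1 and H2-K2 92.2% over 400. In the region 14 members had their 2 ends in different genes, all of them assembled and 12 with 2 exons. They made up 6 of the 7 members that overlap a gene without sharing a junction and 7 of the 13 antisense ones. Of those 7 overlapping members 3 were lower and 1 higher in CIA, where 11.3% and 15% of that class were over the series. Whether such joins are transcripts or come from the placing of reads on copies was not tested.

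In the locus MSTRG.16719 single isoforms differed while the sum did not reach 2-fold. It runs over class I-like genes near H2-T, and its sum was 58.5 FPKM in CIA and 59.2 in healthy. MSTRG.16719.2 had 42.9 and 46.9 FPKM. MSTRG.16719.3 had 10.9 and 3.99 FPKM, and MSTRG.16719.1 had 4.72 and 8.38 FPKM. The first of these was near equal in both libraries, while the other two differed in opposite directions.

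**Figure D4:**
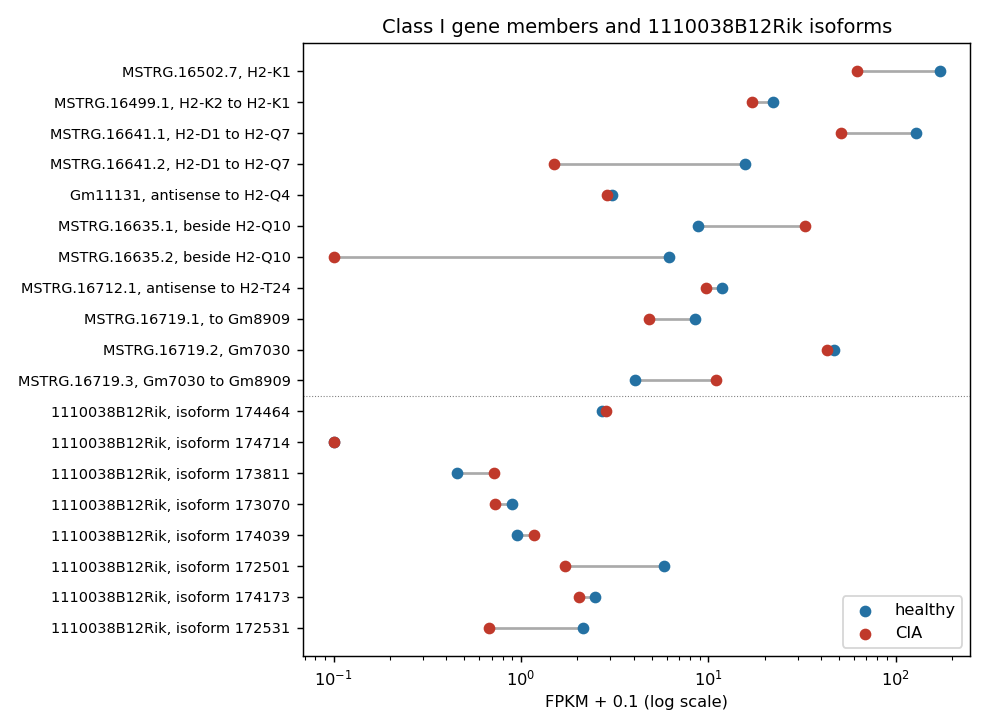
FPKM + 0.1 (x axis, log scale) in the CIA (red) and healthy (blue) library is shown for transcripts of class I genes (above the dotted line) and the 8 isoforms of 1110038B12Rik (below it), 1 library per colour. MSTRG.16502.7 and MSTRG.16641.1 stand at 173 and 129 FPKM in healthy and at 62.3 and 51.1 in CIA, and 2 of the 8 isoforms are at least 2-fold lower in CIA.

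Among 6 intergenic transcripts of the H2-D, Q and T stretch, 4 were higher and 1 lower, with a median of 1.61, beside 24.8% and 14.9% of that class over the series. Isoforms of 1 locus, which went opposite ways, make up 2 of the 6. MSTRG.16635.1 (chr17:35478304-35480264), 3.7 kb from H2-Q10, a gene for a secreted class I molecule made in the liver, had 32.9 FPKM in CIA and 8.75 in healthy, a ratio of 1.90. Its isoform MSTRG.16635.2 was listed at 0 in CIA and at 6.09 FPKM in healthy. The sum of the locus was 32.9 and 14.8 FPKM, a ratio of 1.14, so the lower value of the isoform is not that of the locus. MSTRG.16636.1, next to it, had 4.15 and 2.14 FPKM. Farther along, MSTRG.16654.1 and MSTRG.16655.1 lay inside the span of MSTRG.16653.1. MSTRG.16653.1 had 2.57 FPKM in CIA and 0.964 in healthy, and MSTRG.16654.1 had 2.79 and 0.539 FPKM. MSTRG.16655.1 had 2.54 FPKM in CIA and was listed at 0 in healthy, so that all 3 had the larger value in CIA. Near them the annotated Gm4577, antisense to Ddr1, had 0.958 FPKM in CIA and was listed at 0 in healthy. These 4 had at most 27.9 fragment equivalents in a library.

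Beyond the last H2-T gene 7 transcripts passed the filter, 1 of them higher and 1 lower. Gm20429, a lncRNA among olfactory receptor genes, had 1.33 FPKM in CIA and 2.50 in healthy for one isoform and 2.01 and 1.77 FPKM for the other. MSTRG.16702.1, in its intron, had 0.955 and 3.19 FPKM. MSTRG.16734.1 had 2.41 and 0.689 FPKM, on about 11.2 and 3.5 fragment equivalents.

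In class III the annotated 1110038B12Rik is a host gene of small nucleolar RNAs. Its 8 isoforms summed to 9.20 FPKM in CIA and 14.8 in healthy, a ratio of −0.68. ENSMUST00000172501 had 1.62 and 5.73 FPKM and ENSMUST00000172531 0.575 and 2.06 FPKM, ratios of −1.76 and −1.68. ENSMUST00000174464, which holds 66 bases identical to Snord52, had 2.75 and 2.62 FPKM. ENSMUST00000174173 had 1.93 and 2.38 FPKM, and ENSMUST00000174039 had 1.07 and 0.853 FPKM. The lower sum came from 2 of the isoforms, and the others with values lay within 2-fold.

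Complement was represented by C4a, a copy of the C4b gene of complement component C4. Its 10 deposited transcripts summed to 2.86 FPKM in CIA and 4.42 in healthy, and the longest, ENSMUST00000160679, had 2.46 and 3.77 FPKM. The latter is 96% identical to C4b over 5378 aligned bases, and reads of the copies could not be told apart. The 4 transcripts in the tumour necrosis factor group all lay within 2-fold, with a median of 0.02. In Nfkbil1 the antisense MSTRG.16620.1 had 5.09 and 5.51 FPKM. An isoform of Lta, the gene of lymphotoxin alpha, had 1.83 and 1.64 FPKM, and the intronic transcript of Aif1, a macrophage gene, had 1.23 and 2.08 FPKM. Gm10501, antisense to the heat shock gene Hspa1l, lay under the filter with 0.221 and 0.302 FPKM.

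The other class III members lay in genes of varied roles. MSTRG.16593.1, in an intron of Tnxb, which codes for the matrix protein tenascin-X, was the only one higher in CIA, with 3.28 and 0.917 FPKM. A second Tnxb intron transcript, MSTRG.16594.1, had 2.47 and 2.01 FPKM. MSTRG.16586.1, in the meiotic gene Msh5, had 0.617 and 1.97 FPKM. The most abundant, MSTRG.16634.1 in an intron of the RNA helicase gene Ddx39b, had 8.43 and 6.33 FPKM. MSTRG.16566.5 of Atf6b had 4.81 and 3.38 FPKM, MSTRG.16605.1 of Stk19 had 3.87 and 2.97 FPKM, and the lncRNA Gm17705 had 1.05 and 0.801 FPKM.

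Among the extended class II genes, Platr17 had the larger value in CIA. Platr17, named as a pluripotency-associated transcript but typed protein-coding by GENCODE, had 4.88 FPKM in CIA and 1.81 in healthy, a ratio of 1.39. It shares 246 bases at 98.8% identity with Gm7029, which MSTRG.16464.1 joins to Gm4134, and that transcript had 7.31 and 3.15 FPKM. MSTRG.16467.1, in an intron of Kank3, had 0.188 and 1.76 FPKM, but on only 0.9 and 8.9 fragment equivalents. MSTRG.16493.8, an isoform of Vps52, had 11.7 and 8.86 FPKM. Gm20427, which shares 55.2% of its length with the zinc transporter gene Slc39a7, had 3.37 and 2.44 FPKM, and Gm17251, which overlaps Rab11b, had 0.731 and 1.21 FPKM.

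**Figure D5:**
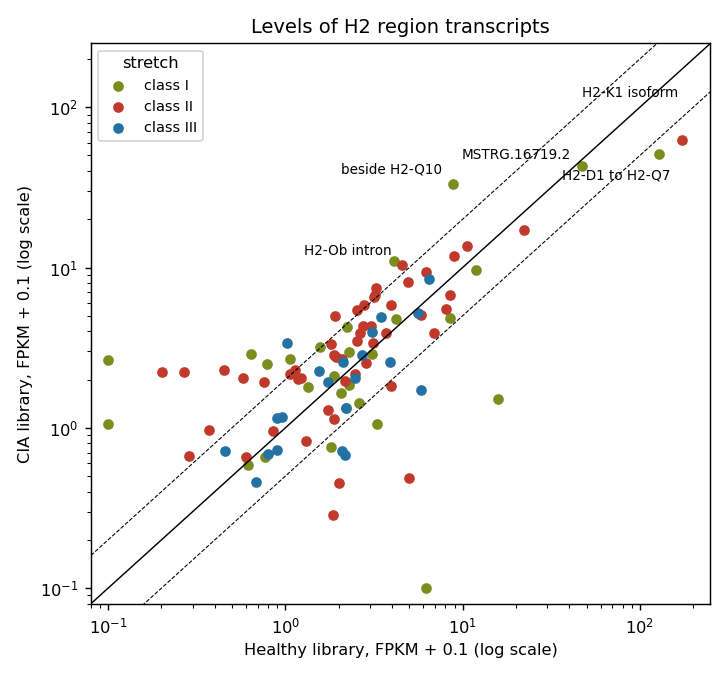
FPKM + 0.1 of the 100 transcripts past the filter in the healthy (x axis, log scale) and CIA library (y axis, log scale), coloured by stretch. The solid line marks equal levels and the dashed lines 2-fold. The 2 transcripts of highest level, the H2-K1 isoform and the transcript reaching from H2-D1 to H2-Q7, lie below the lower dashed line and the transcript beside H2-Q10 above the upper one.

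By position against annotated genes, 11 of 18 intergenic members were higher and 1 lower, with a median of 1.22, where the series median of that class was 0.32. Centring left 9 higher and 1 lower, beside 18.1% and 20.8% of that class over the series. Of 33 intronic members, 5 were higher and 6 lower, beside 15.6% and 10.3% of intronic transcripts over the series. For these, centring gave 2 and 10, beside 9.97% and 14.2%. The 13 antisense members had 3 higher (0 after centring), none lower and a median of 0.59, where the series had 15.4% and 5.32%. Of the 13, 10 are the H2-DMb transcripts. The others, MSTRG.16469.1, MSTRG.16620.1 and MSTRG.16712.1, had ratios of −0.14, −0.11 and −0.29. Of the 5 that share a splice junction with a gene, 1 was higher and 1 lower, where the series had 18.8% and 13.9%. The span of 34 of the 100 transcripts touched a coding gene's exon. Of the 38 transcripts that differed 2-fold, 28 had at least 20 fragment equivalents in 1 library and 10 had fewer.

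Antigen presentation genes outside the region gave a comparison. Of 23 genes listed, 11 held a noncoding transcript, and of 16 transcripts past the filter 1 was higher, none was lower and 11 lay above 0, with a median of 0.30. After centring 0 were higher and 1 lower. All transcripts had 17% higher, 10.3% lower and 64.1% above 0, with a median of 0.26. Centring gave 11.2% and 14.4% of them. Ciita, which codes for the class II transactivator, held MSTRG.14394.1 with 31.1 FPKM in CIA and 19.1 in healthy and the antisense MSTRG.14396.1 with 8.05 and 4.56 FPKM. March1, a ubiquitin ligase that removes class II molecules from the surface, held MSTRG.36356.1 with 23.5 and 13.7 FPKM and an annotated transcript with 11.8 and 8.08 FPKM, while MSTRG.36352.1 there went the other way with 1.505 and 2.64 FPKM. The 1 higher was an annotated noncoding transcript that overlaps Ifi30, the gene of a lysosomal reductase, with 4.57 and 2.01 FPKM. An annotated noncoding transcript that overlaps Nlrc5, the class I counterpart of Ciita, had 1.13 and 1.70 FPKM. Whether any of these differences are linked to those in the region was not tested.

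The authors' deposited table gives p below 0.05 for 4 members and a q below 0.05 for none. In the authors' deposited table these are MSTRG.16502.7 of H2-K1 (p = 0.0164), MSTRG.16641.1, listed under Gm18734 (p = 0.0283), MSTRG.16635.1 beside H2-Q10 (p = 0.00836) and ENSMUST00000172501 of 1110038B12Rik (p = 0.00608). The authors' deposited table lists p as 1 for 75 members and marks 16 as significant, 13 of them higher and 3 lower. How they were computed from 1 library per group is not stated there, and nothing above rests on them.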

How the data were processed

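Spleen cell RNA of 1 CIA and 1 healthy library was extracted with TRIzol and depleted of ribosomal RNA with Ribo-Zero, per the labels' protocols. StringTie, a transcript assembler, is named in the submitters' processing notes. For the aligner, strandedness and statistical test the entry is: not given in the sources used here. FPKM was deposited by the authors per transcript in 2 tables, annotated and assembled, with 0.0001 in place of 0, per the file headers. The deposited ratio (fold) and log2 columns, per the file headers, compare CIA with healthy and were not used. The p-value and q-value columns deposited by the authors are only quoted. All 60 annotated members had GENCODE M21 coordinates, so GRCm38 is given as the build. In 2 damaged cells, of no member, the CIA value was rebuilt from the deposited ratio.

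The log2 ratio with a pseudocount of 0.1 FPKM was computed, with a filter of 0.5 FPKM in either library and a size rule of 2-fold in place of a test. As alternatives, the pseudocount, filter, centring and fold rule (4-fold) were changed, along with locus sums, narrower borders, members without coding overlap and, added after seeing the data, a minimum of 20 fragment equivalents. The members, lists and rules were chosen with earlier results of these data known. Named were the annotated members with at least 1 FPKM, the 5 most abundant assembled ones per stretch, the 5 of highest and 5 of lowest ratio, those at 0 in 1 library with at least 1 FPKM in the other, and the 2 most abundant per presentation gene. Per outside pathway gene the most abundant transcript could be named. Members outside this rule, given to complete a gene or stretch, were chosen after their values were seen. Of the 37 annotated gene names, 12 matched a RefSeq window. Reads of overlapping genes on either strand could not be told apart. Some marker results are not reported here. Copies were aligned with blastn 2.17.0 among GENCODE transcripts, and the computing used Python 3.11.15, numpy 2.4.6, pandas 2.3.3 and matplotlib 3.10.9.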

Additional observations from a re-analysis of the deposited data

How the results depend on the processing

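No paired analysis was possible because there was just 1 library in either group, and no replicate could be left out. Results below are medians of log2 ratios and counts of transcripts 2-fold higher or lower in CIA that moved by more than 0.1 or 1.5 times or, for 2 medians near 0, changed sign by less; the cause was not tested beyond what each setting removes. With a pseudocount of 1 FPKM the annotated median was 0.0109 with 1 higher and 1 lower, 11 assembled, 6 class II and 5 class I transcripts were higher, the class II median was 0.40 and 1 class III transcript was lower. With no filter 4 annotated transcripts were lower and the class III median turned to −0.11. With a filter of 1 FPKM 1 annotated transcript was higher. Centring on the annotated median gave medians of −0.30 (annotated), 0.0902 (assembled), 0.23 (class II), −0.23 (class III, turned) and −0.38 (class I), with 12 assembled and 7 class II transcripts higher and 8 class I lower. Under a 4-fold rule 1 annotated transcript was higher and 0 lower, 5 assembled were higher and 5 lower, 3 class II were higher and 3 lower, 0 class III were higher and 0 lower, and 3 class I were higher and 2 lower. Without members overlapping coding exons the medians were −0.29 (annotated), −0.0228 (class III) and 0.37 (class I, turned), with 1 annotated and 10 class II higher and 7 assembled, 3 class II and 3 class I lower. With locus sums 0 annotated, 1 class III and 3 class I were lower, the class III median was 0.22, and MSTRG.16635.2 turned to 1.14. Narrow borders gave class II a median of 0.77 with 2 lower. With at least 20 fragment equivalents 2 annotated and 5 class I were higher and 3 class II lower. A pseudocount of 0.01 FPKM moved none of these counts past that range. Of the 41 named members, the call changed for MSTRG.16532.1 (0.88) and ENSMUST00000172477 (−1.16) with centring, MSTRG.16481.1 (−0.82) and ENSMUST00000172531 (−0.96) with a pseudocount of 1 FPKM, and ENSMUST00000172501, ENSMUST00000172531 (both −0.68) and MSTRG.16635.2 with locus sums. With 1 library per group and an approximate depth, no interval could be given, and values at under 20 fragment equivalents are the least certain.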
